A study of Mus musculus with 4 samples.

Results

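The 10 fibrillar and vascular collagen genes Col1a1, Col1a2, Col3a1, Col5a1, Col5a2, Col6a1, Col6a2, Col8a1, Col15a1 and Col18a1 were followed across the cell types of the mouse glomerulus, the filtering tuft of the kidney. They were chosen by gene symbol, and all 10 were found among the 52636 genes of the deposited matrices. Single-cell libraries had been made from bead-perfused kidneys of young and of aged untreated mice, with 2 libraries in each group, and both groups went through the same enzyme digestion. The age in months, sex, strain and number of mice behind a library are not given in the sources used here. The p-values below therefore measure only the spread between these libraries, which may be technical.

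Collagens are triple-helical matrix proteins whose chains are hydroxylated and folded in the endoplasmic reticulum, trimmed outside the cell and crosslinked. Types I, III and V assemble into fibrils, type VI forms beaded microfilaments, type VIII builds short-chain networks in vessel walls, and types XV and XVIII are proteoglycan-like collagens of basement membrane zones. The C-terminal fragment of the type XVIII chain is endostatin, a fragment known for restraining blood vessel growth.

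Unique molecular identifiers (UMIs), each standing for 1 captured transcript, were summed per cell class and library. Totals ran from 18457791 to 42046542 UMIs per library, and 5035 to 9187 cells per library were kept. Of the cell barcodes, 9 to 31 were shared by any pair of libraries. Young replicate 2 stood apart: 2657 of its 6976 kept cells were single mixed cells, with markers of several classes, whatever their cluster. Another 1412, not mixed when taken singly, lay in clusters with markers of several classes. In young replicate 1 these numbers were 196 and 55 of 5035. The 5 resident classes tested were podocytes (561 to 1734 cells), endothelial cells (1383 to 6012), mesangial cells (180 to 672), smooth muscle and renin cells (38 to 83) and parietal epithelial cells (32 to 92). No cluster carried the fibroblast marker set, so no fibroblast class was formed. Clusters were made with every collagen gene left out.

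Of the members, 8 had an upstream sequence in the RefSeq promoter table (build GRCm38.p6), and the 3 shown belong to the genes that passed a test of age below. Each line gives 250 bases that end at the base before the annotated start, 5′ to 3′ on the gene's strand, and capitals mark a CCAAT box (CCAAT) or a GC box (GGGCGG) on either strand. The Col15a1 stretch is chr4:47207762-47208011 on the plus strand, the Col18a1 stretch chr10:77166531-77166780 on the minus strand, and the Col8a1 stretch chr16:57754738-57754987 on the minus strand.
Col15a1: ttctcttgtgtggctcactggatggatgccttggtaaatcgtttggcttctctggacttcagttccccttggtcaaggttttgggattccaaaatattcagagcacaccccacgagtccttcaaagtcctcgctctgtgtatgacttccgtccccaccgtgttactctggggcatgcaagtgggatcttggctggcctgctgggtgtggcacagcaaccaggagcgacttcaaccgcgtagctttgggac
Col18a1: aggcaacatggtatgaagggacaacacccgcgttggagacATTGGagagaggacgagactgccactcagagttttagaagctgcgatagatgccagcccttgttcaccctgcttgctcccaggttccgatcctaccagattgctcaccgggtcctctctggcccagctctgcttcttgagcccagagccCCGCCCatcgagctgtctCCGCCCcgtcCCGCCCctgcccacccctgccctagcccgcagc
Col8a1: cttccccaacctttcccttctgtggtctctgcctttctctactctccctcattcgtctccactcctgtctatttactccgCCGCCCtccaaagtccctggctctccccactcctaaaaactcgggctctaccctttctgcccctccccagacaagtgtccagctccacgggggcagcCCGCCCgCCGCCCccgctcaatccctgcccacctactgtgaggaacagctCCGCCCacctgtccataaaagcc
The Col18a1 stretch held 3 GC boxes and 1 CCAAT box, with 18 of its bases inside the GENCODE gene span. The Col8a1 stretch held 4 GC boxes, and the Col15a1 stretch held no match to either motif nor to a TATA box (TATAAA). The Col15a1 stretch ends at 47208011, short of the GENCODE start of the gene at 47208161, and the bases between were not searched. Of 32851 promoter stretches of the same length, 32.74% held a GC box, 33.85% a CCAAT box and 12.37% a TATA box. Col18a1 has another annotated start, within the gene, and 3′ counts do not tell transcripts from these starts apart.

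Of the kept UMIs of the 4 libraries, 16212 were from Col18a1, 10181 from Col1a2, 4796 from Col15a1 and 2595 from Col8a1, while Col1a1 and Col3a1 gave 70 and 75. Among the 5 classes tested, Col1a2, which encodes the alpha-2 chain of type I collagen, was highest in podocytes, the epithelial cells that wrap the capillaries. Col15a1 was highest in endothelial cells, Col8a1 and Col5a1 in mesangial cells, the contractile cells between the capillaries, and Col6a1 and Col6a2 in parietal cells, which line Bowman's capsule. Col5a2 was highest in mesangial cells in the young libraries, while in the aged ones smooth muscle and renin cells, with 4 UMIs each, lay above them. Tubule cells, which were not tested, held more Col5a2 than any class tested in both aged libraries, at 39.7 and 36.4 plain CPM from 39 and 10 UMIs. In B cells, which stand here for background from free RNA, 9 of the 10 genes had no UMI in 323 cells and Col15a1 had 1. A count of 0 in 323 cells allows a share of cells with a UMI of up to 0.929%, which covers counting error only. Cells with markers of unrelated classes had been left out of these B cells, so they can understate free RNA. Their sum was only 473160 UMIs. Of the 50 combinations of member and class, 18 had enough UMIs to pass edgeR's filter, in 8 of the 10 members.

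**Figure D1:**
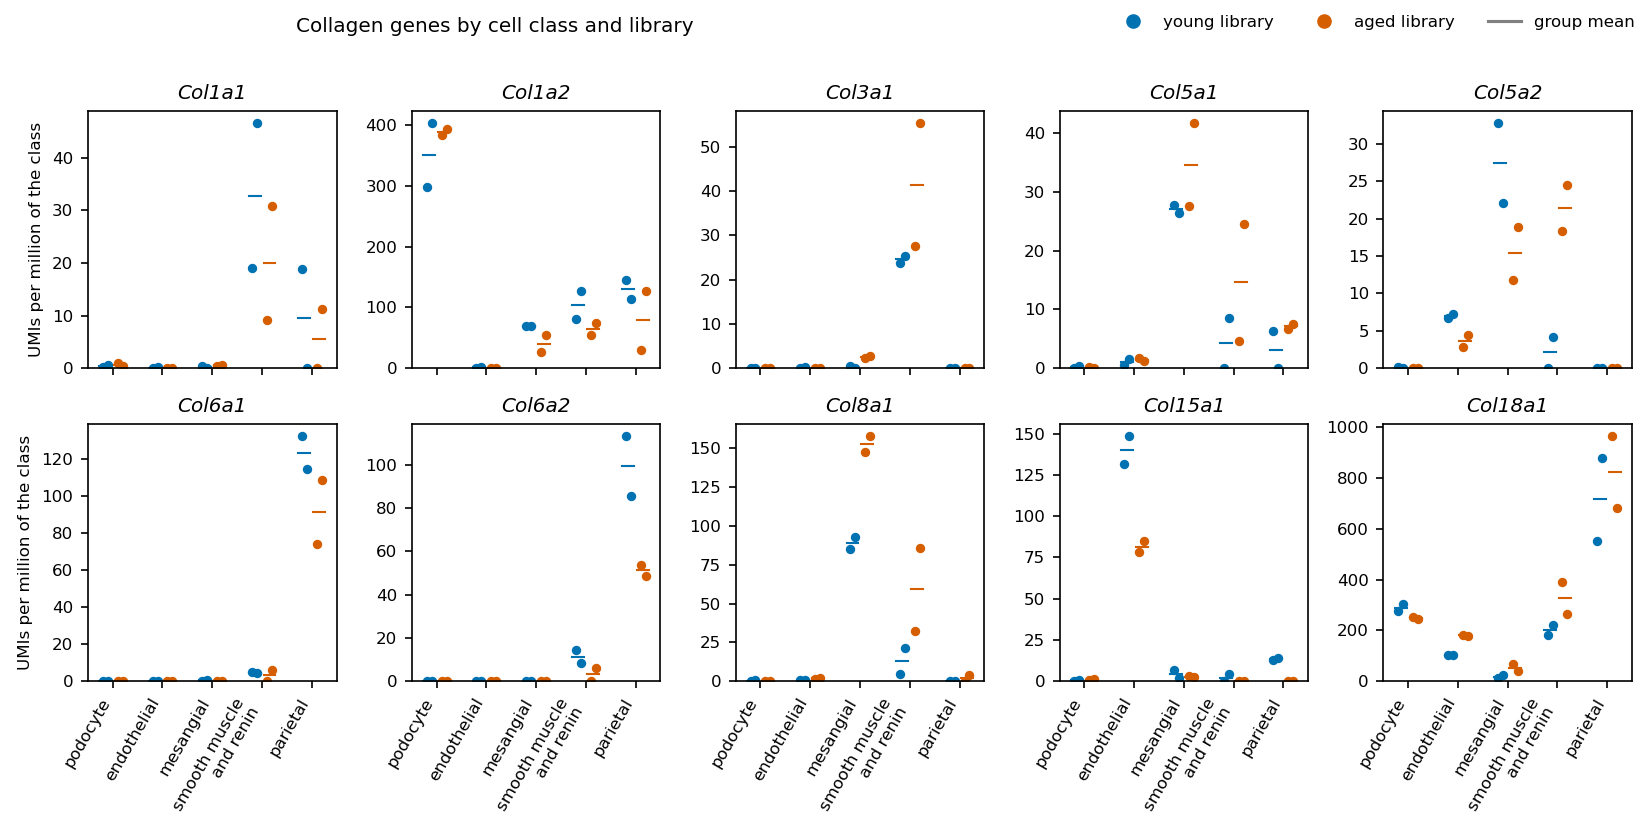
Plain CPM, or UMIs per 1000000 of the class (vertical axis, 1 scale per gene) for the 10 collagens in 5 cell classes, with 1 point per library and a line at the mean of each group of 2. The genes differ in their classes: Col15a1 is seen almost only in endothelial cells, Col6a1 and Col6a2 in parietal cells, and Col18a1 in all 5.

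Col18a1 was the widest of the 10 in its distribution and was the 1 member that passed the count filter in all 5 classes. In plain CPM, the UMIs of a gene per 1000000 UMIs of its class with no other scaling, parietal cells gave 553 and 881 for the young against 965 and 682 for the aged libraries. Podocytes gave 277 and 303 against 253 and 245, and smooth muscle and renin cells 181 and 220 against 391 and 264. Parietal cells thus lay above the other 4 classes in every library, whereas podocytes and smooth muscle cells overlapped. Endothelial cells, with 104 and 102 against 183 and 177, lay below podocytes in every library. Mesangial cells were lowest, with 10.4 and 25.6 against 66.2 and 38.0.

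In endothelial cells, the 2 collagens of the basement membrane zone moved in opposite directions: Col18a1 rose 1.90-fold and Col15a1 fell to 0.636 of its young level. CPM without the word plain, here and below, is scaled by TMM, edgeR's correction for library composition. Col18a1 stood at 104 and 94.4 CPM for the young libraries against 192 and 185 for the aged, so the groups did not overlap. The means were 99.0 ± 6.48 and 189 ± 4.62 CPM (SD, n = 2). Its log2 fold change of aged over young was 0.93 (SE 0.14), with an adjusted p of 0.000428 by edgeR's quasi-likelihood test with Benjamini-Hochberg adjustment over all genes tested. Col15a1, whose type XV chain is related to that of type XVIII, gave 131 and 137 CPM for the young against 81.8 and 88.6 for the aged libraries. The means were 134 ± 4.22 and 85.2 ± 4.79 CPM (SD, n = 2), and the groups again did not overlap. Its log2 fold change was -0.65 (SE 0.14, adjusted p 0.00580 in the same edgeR fit). These were the 2 members called, at an adjusted p under 0.05, among the 5 that passed the filter on low counts, where 5.87% of the 13148 genes tested were called, 3.89% higher and 1.99% lower. The groups of 4 of the 5 did not overlap, as for 48.9% of all genes tested. Of the 5, Col5a1 and Col8a1 needed the aged libraries to pass that filter, so their values are no separate support.

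The share of cells with a UMI moved in the same directions when every cell was thinned to 1000 UMIs, leaving out shallower cells, which left 2383 and 1227 young and 5888 and 4273 aged endothelial cells. For Col18a1 it went from 9.44% ± 0.593 of young to 16.1% ± 0.538 of aged endothelial cells (SD, n = 2), and without thinning from 22.1% ± 0.401 to 38.2% ± 5.30. For Col15a1 the thinned share went from 12.3% ± 1.29 to 6.69% ± 0.473, and the unthinned one from 26.8% ± 2.78 to 19.1% ± 4.56. Median depth was 2316 and 2651 UMIs per young endothelial cell and 2339.5 and 3225 per aged one, against 1200 to 1727 in B cells.

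The endothelial cells fell into clusters that the ages filled unequally, and the difference was also seen inside them. In 7 of the 7 endothelial clusters with enough cells in each library, each aged library exceeded each young one for Col18a1, and in 5 of the 7 each was below for Col15a1. These clusters divide the same 4 libraries and are not separate samples. The share of all genes with such a pattern over clusters was not counted, and in the whole class 48.9% of genes did not overlap. In the largest cluster, led by Rflna, Gata5 and Ier5l, Col18a1 went from 96.5 and 97.3 to 162 and 165 plain CPM, and Col15a1 from 153 and 179 to 83.5 and 86.0. With that cluster tested alone, the log2 fold change was 0.83 for Col18a1 (adjusted p 0.00168 by edgeR) and -0.88 for Col15a1 (adjusted p 0.000921 by edgeR). In the cluster led by the leukocyte adhesion genes Sele and Selp and the cytokine gene Il6, the same genes went from 104 and 110 to 157 and 155, and from 195 and 190 to 107 and 101. The clusters with the least Col15a1 were those led by Esm1 and Igfbp3, at 3.68 and 21.0 in the young against 3.66 and 10.9 in the aged libraries, and by Tspan8 and Thbs2, at 6.12 and 22.1 against 15.2 and 26.6. Of these 2 clusters low in Col15a1, the Esm1 cluster had the most Col18a1 of the 7, with 197 and 227 for the young against 385 and 343 for the aged libraries, in plain CPM. The Tspan8 cluster had the least, with 79.5 and 51.6 against 89.6 and 116.

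**Figure D2:**
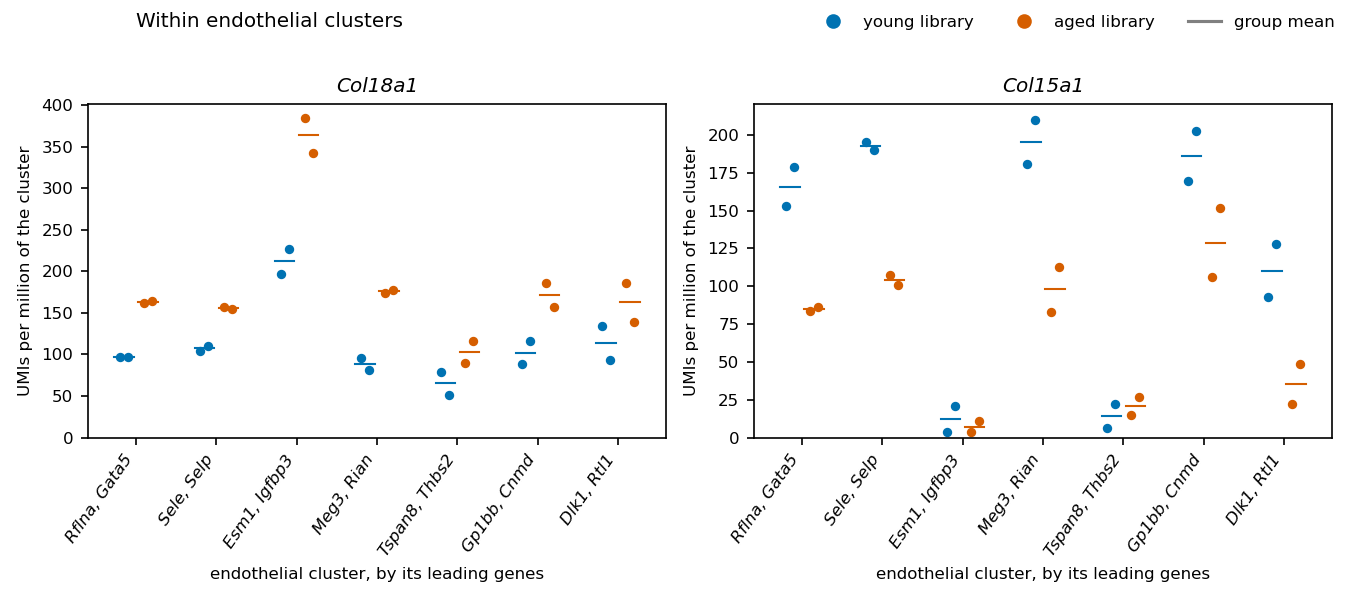
UMIs per 1000000 of the cluster, or plain CPM, (vertical axis) for Col18a1 and Col15a1 in 7 endothelial clusters, named by their leading genes, with 1 point per library and a line at the group mean. Aged points lie above the young ones for Col18a1 in all 7 clusters, and below them for Col15a1 in 5 of 7. All clusters come from the same 4 libraries.

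Both endothelial calls were lost without either young library. Without young replicate 1 the log2 fold changes were 1.00 and -0.68 and without young replicate 2 they were 0.87 and -0.62, and edgeR then called 0 genes of the whole endothelial table, with 1559 and 1398 genes at an unadjusted p under 0.05. Without aged replicate 1, Col15a1 kept a log2 fold change of -0.59 with an adjusted p of 0.101. Summed podocyte markers, all 10 of which had UMIs, stood at 947 and 1334 plain CPM in young and at 835 and 808 in aged endothelial sums. Other lists were higher in the aged endothelial sums, at lower levels. Mesangial markers, 8 of 8 with UMIs, went from 44.3 and 68.3 to 107 and 118 plain CPM. Parietal markers, of the class highest in Col18a1, went from 17.9 and 19.6 (2 and 4 of 8 with UMIs) to 29.9 and 45.8 (6 and 5 of 8), with Cdh6 at 0 in 3 libraries. Macrophage markers went from 2.36 and 6.03 (3 and 7 of 8) to 17.1 and 20.2 (8 of 8). The part of these lists in the Col18a1 and Col15a1 values was not tested.

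In podocytes, no difference by age in Col18a1 passed the test. The libraries gave 279 and 291 CPM in young and 255 and 255 in aged podocytes, without overlap, as for 46.2% of all genes tested there. The log2 fold change was -0.16 (SE 0.13, adjusted p 0.608, edgeR). The share of podocytes with a Col18a1 UMI was 66.7% ± 4.80 for the young and 72.2% ± 4.88 for the aged libraries (SD, n = 2), and after thinning 27.1% ± 4.96 and 21.6% ± 2.65, an order opposite to that before thinning. Smooth muscle and renin cells gave 205 and 244 CPM in young against 453 and 304 in aged libraries, a log2 fold change of 0.77 (SE 0.25) that did not pass (adjusted p 0.246, edgeR). Parietal cells gave 624 and 979 against 1073 and 781 CPM, with overlapping groups (log2 fold change 0.19, SE 0.20, adjusted p 0.700, edgeR).

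Mesangial Col18a1 rose from a low level. The libraries gave 10.1 and 24.6 CPM in young and 70.9 and 38.9 in aged mesangial cells, means of 17.3 ± 10.2 and 54.9 ± 22.7 (SD, n = 2), and the groups did not overlap. The log2 fold change was 1.77 (SE 0.37), with an adjusted p of 0.0131 by edgeR's quasi-likelihood test. The call depended on how the cells were chosen: with mixed cells kept in their best class the log2 fold change was 0.45 (adjusted p 0.385, edgeR), and with cells named one by one it was 1.38 (adjusted p 0.143, edgeR). It was also lost without young replicate 1, at 1.16, and without young replicate 2, at 2.43.

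The mesangial comparison set largely different clusters against each other. Of the aged cells, 647 and 526 came from the cluster led by Cxcl13, Ccl2 and Rab3c, whereas 252 and 162 of the young cells came from the cluster led by Gucy1a3, Sfrp2 and Gprin3. In the Cxcl13 cluster, Col18a1 stood at 67.3 and 38.3 plain CPM in the aged libraries, and the 26 cells of young replicate 1 there gave 61.9, from 6 UMIs. In the Gucy1a3 cluster it stood at 7.83 and 25.5 in the young libraries, and the 25 cells of aged replicate 1 there gave 18.2, from 2 UMIs. Neither cluster held enough cells of both ages for a test, so age and cluster cannot be told apart here. All 10 endothelial markers had UMIs in the mesangial sums, at 2727 and 2369 plain CPM for the young libraries and 2795 and 3009 for the aged ones. Eng, Plvap and Ehd3 among them stood at 0.68, 0.65 and 0.39 of their highest cluster mean in the leading mesangial cluster itself. Smooth muscle and renin markers in the mesangial sums were higher with age, at 94.4 and 49.4 (5 and 4 of 8 with UMIs) against 208 and 181 plain CPM (7 and 6 of 8), with Cnn1 at 0 throughout. Their class had more Col18a1 than mesangial cells in every library, and the part of these lists in the mesangial Col18a1 and Col8a1 values was not tested.

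A test of the difference between classes in the age effect, with the library as a block, covered 10 class pairs and gave 63 tests of members, of which 5 passed. Of these, 4 were of Col18a1. Its log2 difference by age was 1.11 higher in endothelial cells than in podocytes (SE 0.11, adjusted p 9.87e-08, edgeR), in a pair where 6.68% of genes were called. It was 1.98 higher in mesangial cells than in podocytes (SE 0.32, adjusted p 0.000941, edgeR; 3.47% of genes called). Against podocytes it was also higher in smooth muscle and renin cells, by 0.91 (SE 0.26, adjusted p 0.0411, edgeR; 1.04% called), and parietal minus mesangial cells gave -1.40 (SE 0.29, adjusted p 0.00241, edgeR; 1.98% called). The other was Col1a2, with a difference of -0.89 for mesangial cells minus podocytes (SE 0.24, adjusted p 0.0448, edgeR). No member passed in the other pairs, where the share of genes called was 2.76% for parietal cells against podocytes, and against endothelial cells 1.56% for mesangial, 0.572% for smooth muscle and renin and 1.68% for parietal cells. It was 0.712% for smooth muscle and renin against mesangial cells and 0.946% for parietal against smooth muscle and renin cells. With no filter on low counts the smooth muscle difference lost its call (0.93, adjusted p 0.0716, edgeR), and mesangial minus endothelial cells gained one (0.80, adjusted p 0.0432, edgeR).

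**Figure D3:**
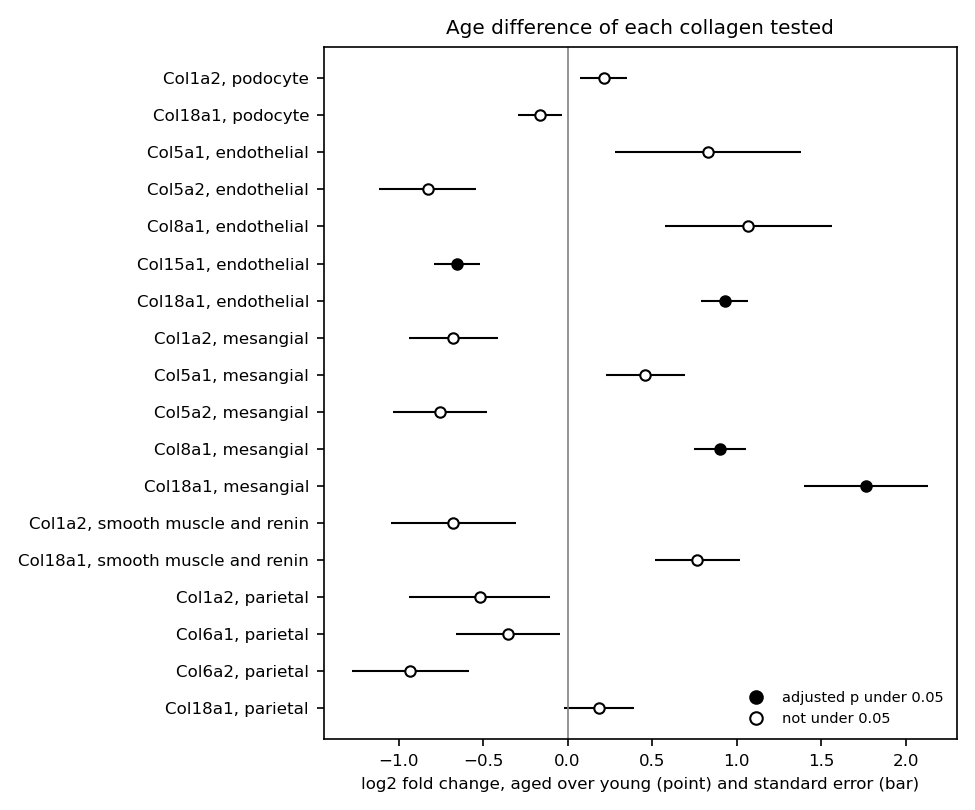
log2 fold change of aged over young (horizontal axis, bars are 1 standard error) for each collagen that passed the count filter in a class, by edgeR. Filled points mark the 4 of 18 with an adjusted p under 0.05: Col15a1 and Col18a1 in endothelial cells and Col8a1 and Col18a1 in mesangial cells.

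Col8a1, which encodes the alpha-1 chain of the short-chain network collagen VIII, rose in mesangial cells. Its libraries gave 82.4 and 89.2 CPM in young and 158 and 161 in aged mesangial cells. The means were 85.8 ± 4.83 and 159.7 ± 2.26 CPM (SD, n = 2), a gap wider than the spread within either group. The log2 fold change was 0.90 (SE 0.15), with an adjusted p of 0.00425 by edgeR. With Col18a1 this made 2 called of the 5 members that passed the mesangial filter, where 6.69% of 10942 genes were called, 4.24% higher and 2.45% lower. The groups of all 5 were without overlap, as were those of 53.7% of all genes tested.

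The clusters showed Col8a1 at both ages. In the Cxcl13 cluster it stood at 148 and 158 plain CPM in the aged libraries, and in the Gucy1a3 cluster at 86.6 and 92.1 in the young ones. The few cells of the other age gave 51.6 in young replicate 1 in the first, from 5 UMIs, and 154 in aged replicate 1 in the latter, from 17 UMIs. The share of mesangial cells with a Col8a1 UMI was 35.6% ± 1.51 for the young and 54.6% ± 7.60 for the aged libraries, and after thinning 8.21% ± 3.71 and 13.7% ± 2.47 (SD, n = 2). Without young replicate 1 or 2 the log2 fold change was 0.85 or 0.96, with adjusted p-values of 0.193 and 0.133 by edgeR. Outside mesangial cells Col8a1 was sparse: endothelial cells held 5 and 4 UMIs in young and 25 and 30 in aged libraries, a log2 fold change of 1.07 (SE 0.50, adjusted p 0.255, edgeR). Endothelial Col8a1 needed the aged libraries to pass the filter, so its rise is no separate support. Smooth muscle and renin cells held 1 and 5 against 7 and 14 UMIs, too few for the filter. Summed mesangial markers in that class stood at 953 and 1517 plain CPM in the young (7 and 8 of 8 with UMIs, Art3 at 0 in young replicate 1) and at 2358 and 2712 in the aged libraries (8 of 8), and their part was not tested. Pdgfrb and Fhl2 among them stood at 0.35 and 0.38 of their highest cluster mean in the smooth muscle and renin cluster itself.

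Among the fibrillar collagens, the chains of type I were found apart. Col1a2 in podocytes stood at 300.2 and 387 CPM in young and at 386 and 409 in aged libraries, with overlapping groups. The log2 fold change was 0.21 (SE 0.14, adjusted p 0.478, edgeR), so that neither of the 2 members tested in podocytes passed, where 6.25% of genes were called, 4.16% higher and 2.09% lower. DESeq2 also called 0 of the 2, and none had an unadjusted p under 0.05. Without young replicate 2 the log2 fold change was 0.40, with an adjusted p of 0.0262 by edgeR. Col1a1, which encodes the alpha-1 chain that type I collagen normally needs, gave 2 and 2 UMIs in young and 5 and 2 in aged podocytes, beside 2270, 1274, 2136 and 1931 UMIs of Col1a2 in the same cells. Endothelial cells held 3, 8, 11 and 9 UMIs of Col1a2.

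Col1a2 was also present in the stromal and capsule classes, without a call. Mesangial cells gave 67.5 and 67.1 CPM in young and 27.7 and 55.7 in aged libraries, groups that did not overlap although the aged libraries were far apart (log2 fold change -0.68, SE 0.26, adjusted p 0.153, edgeR). Without aged replicate 2 the log2 fold change was -1.27, with an adjusted p of 8.75e-08 by edgeR, and with a replicate block it was -0.77 (adjusted p 0.0140, edgeR). Smooth muscle and renin cells gave 91.9 and 141 CPM against 64.0 and 84.9, a log2 fold change of -0.68 (SE 0.37, adjusted p 0.515, edgeR). Of the 2 members tested there edgeR and DESeq2 called 0, with 1 at an unadjusted p under 0.05 by edgeR, and 0.683% of 3515 genes were called, 0.484% higher and 0.199% lower. Neither member's groups overlapped there, as for 42.0% of all genes tested. Parietal cells gave 163 and 127 against 33.6 and 145 CPM, with overlapping groups. Summed podocyte markers in that class were 1616 and 1910 plain CPM in young (10 of 10 with UMIs) and 568 and 749.7 in aged libraries (9 and 10 of 10, Magi2 at 0 in aged replicate 1). Their part was not tested, and Wt1 among them stood at 0.40 of its highest cluster mean in the parietal cluster itself. Without aged replicate 2 the parietal log2 fold change of -0.52 became -2.04 (adjusted p 0.00130, edgeR), and without aged replicate 1 it was 0.057.

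Col1a1 and Col3a1, the chains of the classic interstitial fibrils, were scarce. Col1a1 was highest, over the 4 libraries together, in smooth muscle and renin cells, from 4 and 11 young and 2 and 5 aged UMIs. Col3a1 gave 5 and 6 against 6 and 9 UMIs in the same cells, and 1 and 0 against 12 and 17 in mesangial cells. Podocytes and parietal cells held no Col3a1 UMI in any library. Neither gene passed the filter in any class, so neither was tested. Col15a1 outside endothelial cells was also below the filter, with 14 and 2 young against 14 and 14 aged UMIs in mesangial cells and 2 to 5 per library in podocytes.

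Type V collagen, which regulates the width of type I fibrils, was tested through both its chains in mesangial cells. Col5a1 gave 27.0 and 25.4 CPM in young and 29.4 and 42.6 in aged mesangial cells (log2 fold change 0.46, SE 0.23, adjusted p 0.280, edgeR). Col5a2 gave 31.8 and 21.3 against 12.7 and 19.3 CPM, in the other direction (log2 fold change -0.75, SE 0.28, adjusted p 0.134, edgeR). The groups did not overlap for either chain, and neither passed the test with all libraries. Mixed or unnamed cells, left out of these sums, held 38.8% and 61.2% of the Col5a1 UMIs in young and 5.59% and 6.33% in aged libraries. Without aged replicate 2, Col5a2 was called at -1.11 (adjusted p 0.00104, edgeR), and without aged replicate 1, Col5a1 was called at 0.70 (adjusted p 0.0216, edgeR). In endothelial cells Col5a2 gave 6.73 and 6.73 CPM in young against 2.93 and 4.65 in aged libraries (log2 fold change -0.83, SE 0.29, adjusted p 0.111, edgeR), and it was called without aged replicate 2 at -1.20 (adjusted p 0.0243, edgeR) and with a replicate block at -0.87 (adjusted p 0.0423, edgeR). Endothelial Col5a1 needed the aged libraries to pass the filter. It rested on 3 and 6 UMIs in young and 27 and 20 in aged libraries (log2 fold change 0.83, SE 0.55, adjusted p 0.461, edgeR). That value was 0.13 without young replicate 1 and 1.68 without young replicate 2.

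Of the type VI chains, Col6a1 and Col6a2 were highest in parietal cells among the 5 classes tested, while Col6a3 did not pass the filter there. Col6a1 gave 149 and 127 CPM in young and 82.2 and 124 in aged parietal cells, from 21, 24, 22 and 58 UMIs. Col6a2 gave 128 and 95.2 against 59.8 and 55.6 CPM, from 18, 18, 16 and 26 UMIs, and its groups did not overlap. The log2 fold changes were -0.35 for Col6a1 (SE 0.31, adjusted p 0.603, edgeR) and -0.93 for Col6a2 (SE 0.34, adjusted p 0.133, edgeR). Of the 4 members tested in parietal cells edgeR and DESeq2 called 0, with 1 at an unadjusted p under 0.05 by edgeR, and 5.22% of 4479 genes were called, 2.75% higher and 2.48% lower. The groups of 2 of the 4 did not overlap, as for 48.6% of all genes tested. Podocytes held no UMI of Col6a1 or Col6a2, and endothelial cells held 1 of Col6a2. The class is small, with 32 and 92 young and 49 and 59 aged cells. Summed smooth muscle markers in it were 2396 and 2568 plain CPM in young (4 of 8 with UMIs) and 5089 and 7159 in aged libraries (3 of 8, with Cnn1, Rergl and Pln at 0 throughout). Their part was not tested, and Tagln among them stood at 0.48 of its highest cluster mean in the parietal cluster itself.

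Seen over all kept cells of a library, Col18a1 stood at 161 and 157 plain CPM in young and 158 and 135 in aged libraries, and the classes gave different shares of it by age. Podocytes gave 52.1% ± 20.6 of its UMIs in young and 24.9% ± 1.24 in aged libraries, and endothelial cells 18.4% ± 3.49 and 55.6% ± 2.33 (SD, n = 2). These shares move with how many cells of each class were recovered, and mixed or unnamed cells held a larger part in young replicate 2 than in the other libraries. Col1a2 gave 133 and 158 plain CPM in young and 70.1 and 69.4 in aged libraries, without overlap, although podocyte Col1a2 passed no test. The kept podocytes numbered 1734 and 561 for the young libraries and 978 and 652 for the aged ones. Over whole libraries Col8a1 stood at 16.8 and 16.7 against 24.8 and 30.6, and Col15a1 at 52.9 and 58.2 against 38.5 and 39.9 plain CPM. Of the Col15a1 UMIs, mixed or unnamed cells held 17.9% and 36.0% in young and 2.48% and 4.33% in aged libraries.

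Of 59 other genes of collagen biology, 5 lists were drawn up: partner chains, fibril-associated collagens, enzymes of chain modification and folding, genes of propeptide removal and crosslinking, and receptors. Podocytes had 4 called higher and 0 lower of 27 tested, endothelial cells 6 and 0 of 35, mesangial cells 7 and 0 of 33, and parietal cells 0 and 1 of 18. The endothelial count includes Loxl4, which passed the filter only through the aged libraries. In smooth muscle and renin cells edgeR called 0 of 14, with 3 at an unadjusted p under 0.05. Among all genes tested, the share called higher was 4.16% for podocytes, 3.89% for endothelial and 4.24% for mesangial cells. The median log2 fold change of the listed genes was 0.03, 0.37 and 0.29 in these classes, beside 0.01, -0.01 and -0.01 over all genes tested.

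Modification and folding enzymes had 3 of 15 called higher for podocytes, 3 of 17 for endothelial cells and 1 of 16 for mesangial cells, with median log2 fold changes of 0.15, 0.14 and 0.15. P4ha2, a catalytic chain of prolyl 4-hydroxylase, rose in podocytes from 41.8 and 46.5 to 66.1 and 77.4 CPM (log2 fold change 0.71, adjusted p 0.00124, edgeR). In endothelial cells it rose from 54.1 and 49.6 to 90.7 and 91.4 CPM (0.81, adjusted p 0.00122, edgeR). It was also the gene called in mesangial cells, at 42.9 and 27.0 against 58.2 and 76.0 CPM, a log2 fold change of 0.90 (adjusted p 0.0310, edgeR), named here after its values were seen. Plod2, a lysyl hydroxylase, rose in podocytes from 280.4 and 304 to 404 and 480.3 CPM (0.60, adjusted p 0.00382, edgeR), and P4ha1, another prolyl 4-hydroxylase chain, from 94.0 and 94.8 to 104 and 168 CPM (0.53, adjusted p 0.0391, edgeR). None of the list was called in smooth muscle and renin cells (7 tested, 0 at an unadjusted p under 0.05) or parietal cells (11 tested, 3 at an unadjusted p under 0.05).

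Genes of propeptide removal and crosslinking had 1 of 6 called higher for podocytes, 2 of 6 for endothelial and 2 of 5 for mesangial cells, with medians of 0.18, 0.66 and 0.70. Bmp1, the protease that removes C-propeptides, rose in mesangial cells from 16.9 and 21.3 to 41.3 and 44.1 CPM (1.19, adjusted p 0.00629, edgeR). Pcolce, which enhances that protease, rose in endothelial cells from 17.1 and 15.5 to 28.9 and 24.5 CPM (0.70, adjusted p 0.0183, edgeR). The crosslinking oxidase gene Loxl4 had 1 and 0 UMIs in young and 42 and 36 in aged endothelial cells (adjusted p 0.00127, edgeR). These came from sums of 6359028 and 3983128 young and 16099735 and 16203245 aged UMIs. Loxl4 passed the filter only through the aged libraries, where it was high, so its call is no separate support. The endothelial count and median of this list include it. Lox, of the enzyme family of Loxl4, rose in podocytes from 2.25 and 2.73 to 6.32 and 5.08 CPM (1.24, adjusted p 0.0452, edgeR). The 2 smooth muscle genes and 3 parietal genes tested in this list were not called, with medians of -0.17 and -0.21 and with 1 and 0 at an unadjusted p under 0.05.

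Of the chains, 2 of the 2 partner chains tested in mesangial cells were called higher and 1 of the 2 fibril-associated collagens. Col6a3, which encodes the alpha-3 chain of type VI collagen, rose there from 94.9 and 97.4 to 153 and 174 CPM (0.77, adjusted p 0.0111, edgeR), in cells that held 1 UMI of Col6a1 and none of Col6a2. Col12a1, a collagen bound to fibril surfaces, went from 67.5 and 80.2 to 264 and 126 CPM (1.41, adjusted p 0.0111, edgeR). Endothelial cells had 3 partner chains and 2 fibril-associated collagens tested, with medians of 0.82 and 0.38, and edgeR called 0 of them, with 1 of each at an unadjusted p under 0.05. Smooth muscle and renin cells had 1 of each tested and none called, each at an unadjusted p under 0.05. Podocytes and parietal cells had none that passed the filter.

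Receptors gave 1 called higher of 7 tested in endothelial and 1 of 8 in mesangial cells, and 0 of 6 in podocytes, with medians of 0.17, 0.16 and -0.18. Both calls were Mrc2, an endocytic receptor that takes up collagen fragments. It rose from 2.66 and 3.48 to 13.1 and 10.0 CPM in endothelial cells (1.94, adjusted p 0.000295, edgeR) and from 64.1 and 66.3 to 112 and 109.9 CPM in mesangial cells (0.77, adjusted p 0.0115, edgeR). Antxr1, a receptor that binds type VI collagen, fell in parietal cells from 120.5 and 95.2 to 37.4 and 44.9 CPM (-1.33, adjusted p 0.0361, edgeR). In parietal cells it was the 1 call among 4 receptors tested, whose median was -0.06, and 3 receptors tested in smooth muscle and renin cells had a median of 0.20 with 0 called and 0 at an unadjusted p under 0.05.

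**Figure D4:**
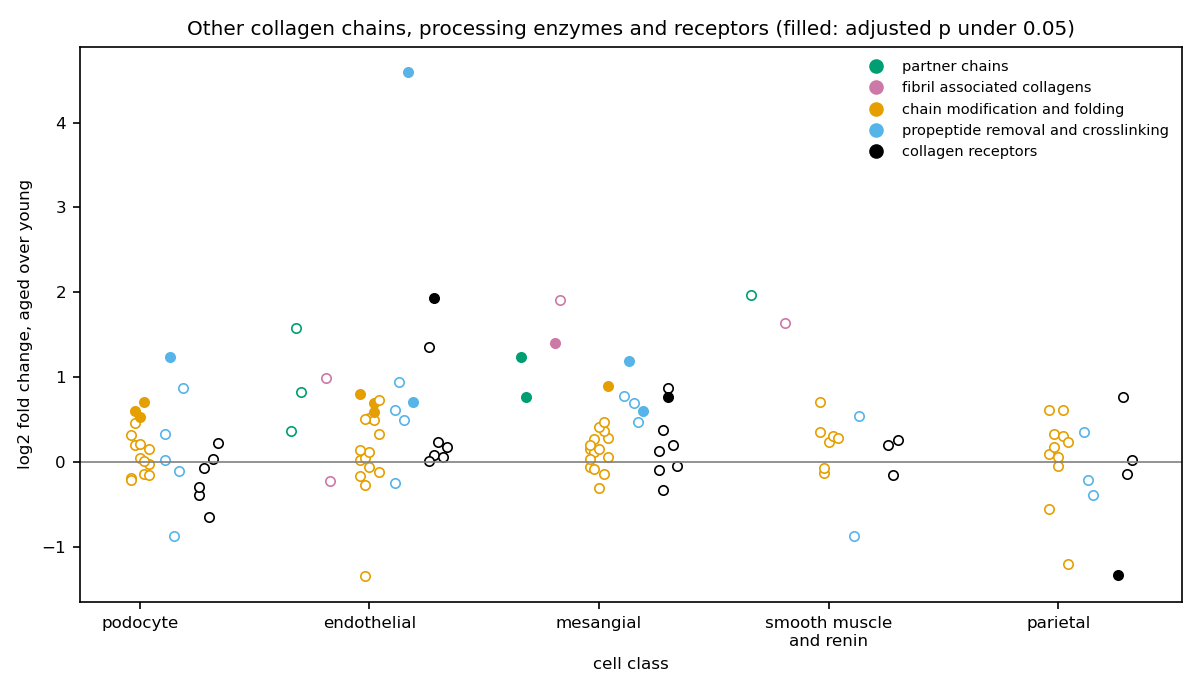
log2 fold change of aged over young (vertical axis) for each gene of the 5 other collagen lists in each cell class, by edgeR. Filled points mark an adjusted p under 0.05: all 17 of them in podocytes, endothelial and mesangial cells lie above 0, and the 1 in parietal cells, Antxr1, lies below.

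By GENCODE vM21 on GRCm38, all 10 are protein-coding genes. Col18a1 spans chr10:77052178-77166548 on the minus strand and Col15a1 chr4:47208161-47313167 on the plus strand. Col8a1 spans chr16:57624258-57754737 on the minus strand and Col1a2 chr6:4504814-4541544 on the plus strand. Whether counting used the strand is not stated in the labels. It is therefore not known here whether reads of Slc19a1, which overlaps Col18a1 on the opposite strand, were kept apart from those of Col18a1. Slc19a1 was given 0, 0, 1 and 2 UMIs in endothelial cells, beside 662, 407, 2954 and 2872 of Col18a1.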

How the data were processed

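Single-cell 3′ libraries of 2 young and 2 aged glomerular preparations were analysed from deposited matrices of raw UMI counts per gene and barcode, which the authors made with Cell Ranger 6.0.1, per the file headers (3.1.0 per the labels' protocols), on GRCm38. Barcodes with at least 500 genes and at most 20% mitochondrial UMIs were kept. Because Scrublet's automatic threshold marked 134 barcodes, the highest scores were removed at 0.8% per 1000 barcodes. Cells were clustered (scanpy 1.11.5, leidenalg 0.10.2, resolution 1, 2000 variable genes, 30 components, 15 neighbours) without collagen genes and named from marker lists. Naming thresholds were chosen with the data in view. The 5 resident glomerular classes, each with at least 20 cells in every library, were tested on UMI sums (immune and tubule cells were not) with edgeR 4.0.16 in R 4.3.3 (quasi-likelihood, TMM, default filter, age as the 1 term, Benjamini-Hochberg over all genes). Standard errors were derived from the fold change and the F statistic. Scripts were tested on simulated data. The labels name no pairing of libraries, so the main fit has no replicate block. Over all genes, same-numbered libraries did not deviate together (correlations -0.04 to 0.07), which cannot exclude a batch that acts on some genes. Alternatives were DESeq2 1.42.0, other filters, cell choices and left-out libraries.

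All members are named. From the other lists, up to 4 called genes with the smallest p per class and direction are named, given that the libraries of the 2 ages did not overlap. The members and lists were chosen with earlier results of these data known. Of the 50 combinations of member and class, 18 passed the filter. Of the 59 other listed genes, 58 were found.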

Additional observations from a re-analysis of the deposited data

Results flagged for a closer look

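The age difference differed between cell classes by the interaction test for 2 members. For Col18a1 the log2 difference by age was 1.11 higher in endothelial cells, 1.98 higher in mesangial cells and 0.91 higher in smooth muscle and renin cells than in podocytes, and parietal minus mesangial cells gave -1.40. For Col1a2, mesangial cells minus podocytes gave -0.89.

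Members also had UMIs in cells that no test used. Tubule cells held 280 UMIs of Col18a1, 51 of Col5a2, 12 of Col1a2 and 6 of Col15a1 over the 4 libraries. Of the Col5a2 UMIs in tubule cells, 39 came from aged replicate 1. Macrophages held 36 of Col15a1 and 13 of Col18a1, and monocytes and dendritic cells 4 of Col15a1 and 11 of Col18a1. A small cluster led by Mgp, Sox9 and Cck had 76 cells, 74 of them from aged replicate 2. Once single mixed cells were left out, 36 cells of aged replicate 2 remained. These held 46 UMIs of Col18a1, 37 of Col1a2, 35 of Col8a1, 11 of Col15a1, 6 of Col5a1 and 4 of Col5a2. That cluster stayed unnamed because markers of another class led it.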

How the results depend on the processing

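Over 261 alternative values of the 18 tested combinations of member and class, 235 kept direction and side of the threshold, 13 lost the call, 9 gained one and 4 changed sign, none of which was a call. Only the 4 called combinations could lose a call. In endothelial cells Col15a1 lost it in 4 of 17 alternatives and Col18a1 in 3 of 17. In mesangial cells Col8a1 lost it in 2 of 14 and Col18a1 in 4 of 14. The number of members called was 0 in endothelial cells with no filter on low counts, against 2, in a fit that called 0 genes (4 members and 2226 genes at an unadjusted p under 0.05, edgeR), and the cause was not tested. It was 1 in mesangial cells named one by one, against 2. Leaving out a library gave 0 to 1 in podocytes, 0 to 3 in endothelial cells, 0 to 4 in mesangial cells, 0 to 0 in smooth muscle and renin cells and 0 to 1 in parietal cells. With the replicate number as a block, 0, 3, 3, 0 and 0 members were called in these classes, and 855, 1294, 1262, 130 and 298 of all genes. The labels do not say that the numbers pair the libraries. Leaving out a library leaves a group with 1 library, assumed to vary like the other group. The changes of sign were Col1a2 in parietal cells without aged replicate 1 (0.057, in a range of -2.04 to 0.057 over left-out libraries), Col6a1 in parietal cells with mixed cells kept (0.028), Col18a1 in parietal cells without young replicate 1 (-0.062) or aged replicate 1 (-0.020), in a range of -0.062 to 0.60, and the share of podocytes with a Col18a1 UMI after thinning (aged minus young -5.58 percentage points, against 5.50). The interaction test called 5 with DESeq2's size factors and 5 with no filter, where 1 call was lost and 1 gained. The endothelial cluster alternatives were chosen after seeing the data. Over all alternatives the genes called ranged from 42 to 877 in podocytes (677 as reported), 0 to 1294 in endothelial cells (772), 47 to 1733 in mesangial cells (732), 0 to 130 in smooth muscle and renin cells (24) and 60 to 442 in parietal cells (234). DESeq2 called 264, 513, 422, 15 and 60 genes in these classes. In smooth muscle, renin and parietal cells, sums of 158995 to 534869 UMIs limit what can be detected.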
